A study of Bos taurus with 138 samples.

Results

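The cytoplasmic translation factors are the proteins that start, extend and end a polypeptide on the ribosome. Their mRNAs were taken as every gene symbol of the deposited table that begins with EIF and a digit, except the cap-binding EIF4E and scaffold EIF4G families, every symbol that begins with EEF1 or EEF2 without the methyltransferases named KMT, and the release and recycling factors ETF1, GSPT1 and ABCE1. This rule found 53 genes among 16706 symbols, and 52 of them passed the filter on low counts. The exception was EEF1A2, the elongation factor isoform of muscle and neurons, with 547 counts in all 138 libraries together. Subunit c of eIF3 was listed only under the symbol EIF3CL. EIF1AD, an eIF1A domain protein, and EEF1AKNMT, a methyltransferase that modifies eEF1A, met the rule but belong to none of the role lists.

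In initiation, eIF2 with GTP carries the initiator tRNA to the small ribosomal subunit, where eIF1, eIF1A, eIF3 and eIF5 control the choice of the start codon. The eIF4A helicases open structure ahead of it, and eIF5B joins the large subunit. The guanine nucleotide on eIF2 is renewed by eIF2B, and stress kinases that phosphorylate the alpha subunit of eIF2 block this step. In elongation, eEF1A delivers aminoacyl-tRNA and is recharged by the eEF1B complex, and eEF2 moves the ribosome along the mRNA. The release factors eRF1 and eRF3 end the chain, and ABCE1 splits the ribosome. An oocyte enters maturation with stored mRNA, and in cattle the embryonic genome becomes strongly active around the 8-cell stage.

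Whole transcriptomes and polysome profiles were available at 6 stages of development, namely germinal vesicle (GV) oocytes, metaphase II (MII) oocytes, 2-cell embryos, 8-cell embryos, morulae and blastocysts. GV oocytes came from ovaries collected at a slaughterhouse, MII oocytes were matured in vitro, and embryos were produced by in vitro fertilization with semen of a Holstein bull, so all embryos were made in vitro. At every stage cycloheximide, which holds ribosomes on mRNA, was put into the culture shortly before the oocytes or embryos were taken, and the lysis buffer held it too. Each lysate, of about 100 oocytes or embryos, was split by a sucrose gradient into 10 fractions, with 2 gradients (A and B) per stage. F1-F2 hold free RNA, F3-F5 monosomes, F6-F7 an intermediate range and F8-F10 polysomes. The transcriptome was sequenced in 3 pools of 20 oocytes or embryos per stage, labelled A, B and C. The samples are pools, so p-values of edgeR measure the spread between pools, which may be partly technical.

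Totals lay between 1229382 and 17342859 counts over the 120 fraction libraries and between 3269386 and 11812567 over the 18 transcriptomes. The 3 fractions F8, F9 and F10 of a gradient were summed, which gave 12 polysome pools of 22543733 to 39380640 counts. Levels are CPM, counts per 1000000 counts of a library, scaled by trimmed mean of M values (TMM) factors, so they are shares of the mRNA in a library and not amounts per embryo, and fewer cells of a type and less RNA per cell cannot be told apart. The 7 oocyte markers summed to 15835 to 19784 CPM in the 6 oocyte transcriptomes and to 19.7 to 109 CPM in those of morulae and blastocysts. The 6 trophectoderm markers summed to 50.7 to 61.5 CPM at GV, where KRT18 was at 0, and to 5674 to 7011 CPM in blastocysts. There KRT18 and KRT8 had means of 3413 and 1892 CPM. CDX2 had 7.57 CPM, beside 7.17 at the 2-cell stage. The 10 markers of cumulus and granulosa cells, which had been removed, summed to 481 to 629 CPM at GV, 413 to 525 CPM at MII, 355 to 390 CPM at the 2-cell stage, 182 to 367 CPM at the 8-cell stage and 16.4 to 40.8 CPM later, with FOXL2 at 0 in GV and MII oocytes, 2-cell embryos and blastocysts, AMH and AMHR2 at 0 at the 2-cell stage and PTX3 at 0 in morulae. These are sums in transcriptomes, and in single fraction libraries the 10 summed to 610 to 1801 CPM at GV and 347 to 1722 at MII. STAR had the highest mean of the 10 in the GV transcriptomes, 513 CPM, and a mean of 164 CPM at MII. From GV to MII oocytes the mean of HAS2 went from 31.2 to 165 CPM, that of TNFAIP6 from 0.0487 to 114 CPM and that of CYP11A1 from 0.0319 to 14.7 CPM. Their part in the results below was not tested. Gradients A and B were least alike at the 8-cell stage, where 16 of the 52 factors had over 2-fold more CPM in polysome pool B and 5 in pool A, beside 27.1% and 14.8% of all genes, and in morulae, where 8 did so in B and 13 in A, beside 27.7% and 16.2% of all genes.

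Together, the 52 factors took 10868 ± 1271 CPM (SD, n = 3) of the GV transcriptome, 16014 ± 2431 at MII and 9848 ± 1141 at the 2-cell stage. The sum was 20369 ± 1757 CPM at the 8-cell stage, 24297 ± 144 in morulae and 20453 ± 972 in blastocysts. In the 2 polysome pools of a stage, the sums were 5889.7 and 5648 CPM at GV, 5456 and 6208 at MII and 4171 and 4315 at the 2-cell stage. They were 11875 and 14749.7 CPM at the 8-cell stage, 24918 and 17754 in morulae and 18020.4 and 20331 in blastocysts. Both pools lay below all 3 transcriptomes at the 4 stages up to the 8-cell embryo, and the ranges of both kinds overlapped in morulae and blastocysts. EEF1A1 made up a large part of the late sums. It had 7686, 10286 and 9965 CPM in the blastocyst transcriptomes and 5508 and 6688 CPM in the blastocyst pools. The overlap in blastocysts rests on this gene, and without it both pools lie above all 3 transcriptomes.

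The question for the transcriptome was how the share of each factor mRNA in a library changed from one stage to the next. The libraries were primed on poly(A) tails, so a change of tail length could also change these values, which was not tested. A gene was called where edgeR gave an adjusted p below 0.05 and a fold change above 2. From GV to MII oocytes, 8 factors rose, against 6.61% of all 14612 genes tested, and 15 fell, against 10.5%. From MII oocytes to 2-cell embryos, 4 rose (6% of all genes) and 6 fell (5.96%). From 2-cell to 8-cell embryos, 29 rose and 3 fell, against 26.6% and 23.5% of all genes. The median log2 change over the factors in that step was 1.43, and over all genes it was 0.03. From 8-cell embryos to morulae, 6 rose (6.6% of all genes) and 1 fell (7.75%). From morulae to blastocysts, 3 rose (10.2%) and 19 fell (11.4%), with a median of -0.76 beside -0.01 over all genes. Leaving out GV transcriptome C gave 5 rises and 15 falls from GV to MII, and leaving out MII transcriptome C gave 4 and 12. The step from MII to 2-cell held 1 rise and 5 falls without MII transcriptome C, and 2 rises and 8 falls without 2-cell transcriptome A. With median-of-ratios size factors in place of TMM, 5 factors rose and 3 fell from 8-cell embryos to morulae, and with DESeq2 5 rose and 4 fell. Shares of all genes under these alternatives are not given.

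**Figure D1:**
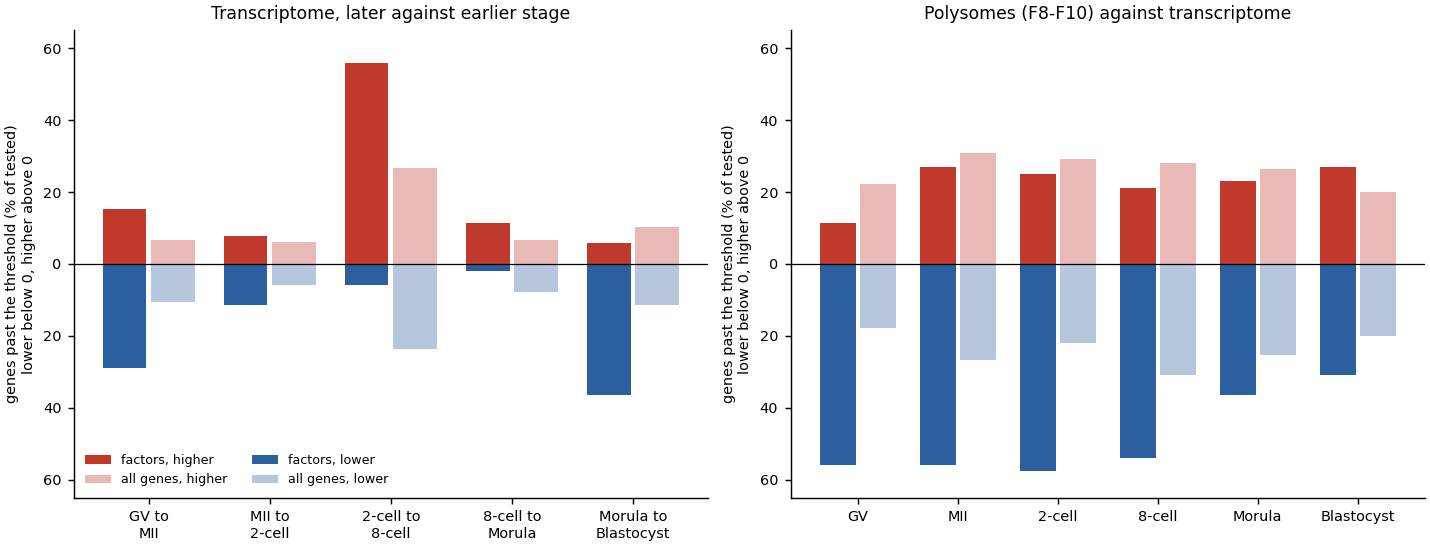
Share of genes past the threshold in each comparison, in percent of those tested, with genes that were higher drawn above 0 and those that were lower below 0. Dark bars are the 52 factors and pale bars all 14612 genes. The tallest bar of the transcriptome panel is the 29 factors that rose from 2-cell to 8-cell embryos, and in the polysome panel the dark bars below 0 stand for 16 to 30 factors.

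By the stage of the highest mean transcriptome level, 5 factors peaked at GV, 9 at MII, 1 at the 2-cell stage, 9 at the 8-cell stage, 18 in morulae and 10 in blastocysts. The 9 with their peak at MII were EIF1, EIF2A, EIF2AK3, EIF2AK4, EIF2S3, EIF3E, EIF3L, EIF4A2 and EIF5B. Those with their peak in blastocysts included the elongation factors EEF1A1, EEF1B2, EEF1D, EEF1G and EEF2. These are 5 of the 7 tested genes of the elongation list, which also holds the kinase EEF2K and EEF1E1 of the tRNA synthetase complex. In MII oocytes, 19 factors had their lowest level. Stages of the highest and lowest level were not counted over all genes.

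Among the start codon and ternary complex factors, 5 of 10 rose and 1 fell from GV to MII oocytes (6.61% and 10.5% of all genes). EIF2A, a factor of alternative initiation, had 109.9, 157 and 110.5 CPM in the GV transcriptomes and 331, 400.5 and 609.6 in those of MII oocytes (log2 fold change 1.83 ± 0.53 (SE), adjusted p = 0.0161). The MII range lay wholly above the GV range, but the call was lost without GV transcriptome A or C or MII transcriptome C, with adjusted p of 0.0711, 0.0673 and 0.0813. EIF1, which guards the choice of the start codon, rose from 733, 844 and 885 CPM to 2167, 1986 and 2314 (log2 fold change 1.39 ± 0.26, adjusted p = 3.11e-04). Its paralogue EIF1B, with which it could share reads, had 609, 722 and 717 CPM at GV and 696, 638 and 709.9 at MII, and did not pass the test. EIF1B fell from 515, 454 and 477 CPM at the 2-cell stage to 174, 185 and 190.1 at the 8-cell stage (log2 fold change -1.40 ± 0.20, adjusted p = 4.56e-06), where EIF1 had 1909, 2401 and 1777 CPM and did not pass the test. In blastocysts, EIF1 and EIF1B had means of 771 and 91.8 CPM, and that of EIF1B was the lowest of the 6 stages.

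EIF1AX, the eIF1A that holds the scanning ribosome open, dipped at the 2-cell stage. Its transcriptome levels were 511, 328 and 323 CPM at MII, 73.6, 51.96 and 51.1 at the 2-cell stage and 629, 1000.1 and 789 at the 8-cell stage. The fall (log2 fold change -2.72 ± 0.37, adjusted p = 2.22e-05) and the rise (log2 fold change 3.77 ± 0.39, adjusted p = 2.60e-08) both exceeded the spread between pools. The eIF2 subunits did not move together. EIF2S1 (alpha) and EIF2S2 (beta) rose from 2-cell to 8-cell embryos, by 1.62 and 2.22 on the log2 scale. EIF2S3 (gamma) rose earlier, from GV to MII oocytes (log2 fold change 1.32 ± 0.27, adjusted p = 8.56e-04). EIF2S1 fell again from 676, 758 and 929 CPM in morulae to 158, 159.6 and 169.9 in blastocysts (log2 fold change -2.28 ± 0.35, adjusted p = 3.91e-05), whereas EIF2S2 had 608, 567 and 737 and 531, 445 and 521 CPM there and did not pass the test.

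Of the 5 subunits of eIF2B, 4 fell from GV to MII oocytes, against 10.5% of all genes. The exception was the catalytic subunit EIF2B5, which had 4.93, 4.10 and 3.04 CPM at GV. EIF2B2 had 29.99, 25.4 and 30.8 CPM at GV, 3.66, 5.58 and 6.42 at MII and 158, 151 and 189 in morulae. The fall to MII gave log2 fold change -2.46 ± 0.26, adjusted p = 2.08e-07. EIF2B5 and EIF2B2 rose from 2-cell to 8-cell embryos, EIF2B5 from 3.73, 2.56 and 2.93 CPM to 58.7, 80.4 and 54.7 (log2 fold change 4.39 ± 0.53, adjusted p = 3.18e-07). EIF2B4 went the other way in that step, from 69.7, 72.0 and 92.9 CPM to 25.9, 15.9 and 25.8 (log2 fold change -1.80 ± 0.28, adjusted p = 1.21e-05). It had risen from MII oocytes, where it had 31.7, 31.2 and 24.1 CPM (log2 fold change 1.43 ± 0.28, adjusted p = 9.51e-04). EIF2B1 fell the most from morulae to blastocysts of all factors, from 94.9, 83.5 and 126 CPM to 9.70, 12.6 and 18.8 (log2 fold change -2.88 ± 0.32, adjusted p = 8.11e-07).

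The 4 kinases that phosphorylate eIF2 alpha peaked at different stages, EIF2AK3 and EIF2AK4 at MII, EIF2AK1 at the 2-cell stage and EIF2AK2 at the 8-cell stage. EIF2AK2, the kinase PKR that senses double-stranded RNA, had 0.685, 1.199 and 0.677 CPM at the 2-cell stage, 49.2, 27.7 and 32.2 at the 8-cell stage and 0.373, 2.50 and 1.72 in morulae. Each 8-cell transcriptome lay above every other transcriptome of the series, the next highest being 11.6 CPM at MII. The rise gave log2 fold change 5.403 ± 1.37, adjusted p = 0.00220 and the fall log2 fold change -4.56 ± 1.31, adjusted p = 0.0195. The fall lost its call without 8-cell transcriptome A or any 1 of the 3 morula transcriptomes, at adjusted p between 0.0508 and 0.0931. EIF2AK1, the heme-regulated kinase HRI, fell from 143, 129 and 118 CPM at the 2-cell stage to 36.4, 36.4 and 42.6 at the 8-cell stage (log2 fold change -1.76 ± 0.29, adjusted p = 2.66e-05). EIF2AK3 (PERK) and EIF2AK4 (GCN2) passed in no step, with means between 5.04 and 18.9 CPM and between 39.4 and 108 CPM.

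The 13 subunits of eIF3, the largest initiation factor, split from GV to MII oocytes, where 2 rose and 6 fell. Of all genes, 6.61% rose and 10.5% fell. EIF3E and EIF3L rose, EIF3L from 841, 815 and 869 CPM to 1597, 1909 and 2835 (log2 fold change 1.33 ± 0.27, adjusted p = 8.12e-04). EIF3F fell from 47.4, 35.0 and 47.5 CPM to 6.64, 7.60 and 4.88 (log2 fold change -2.76 ± 0.25, adjusted p = 2.69e-08), and EIF3G from 126, 155 and 121 to 23.1, 22.2 and 21.2 (log2 fold change -2.60 ± 0.32, adjusted p = 1.85e-06). The ranges of GV and MII oocytes did not overlap for any of these genes. From 2-cell to 8-cell embryos, 10 of the 13 rose, against 26.6% of all genes. EIF3G had 19.8, 12.6 and 10.53 CPM before and 303, 258 and 207 after this step (log2 fold change 4.16 ± 0.34, adjusted p = 9.94e-10). EIF3A, the scaffold of the complex, had 90.2, 112 and 86.3 CPM before and 529, 882 and 748 after (log2 fold change 2.90 ± 0.26, adjusted p = 3.42e-09). The 3 that did not pass were EIF3CL, EIF3E and EIF3L. In blastocysts, 5 of the 13 were lower than in morulae, against 11.4% of all genes. EIF3L fell from 714, 763 and 682 CPM to 176, 121 and 170.1 (log2 fold change -2.21 ± 0.28, adjusted p = 3.69e-06).

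EIF4A1 and EIF4A2, near-identical helicases whose reads could be shared, differed in the oocyte. EIF4A2 rose from 291, 357 and 357 CPM at GV to 952, 912 and 1286 at MII (log2 fold change 1.65 ± 0.22, adjusted p = 5.27e-06). EIF4A1 had 711, 848 and 723 and 851, 1015 and 1651 CPM there and did not pass the test. Both fell from MII oocytes to 2-cell embryos and from morulae to blastocysts, EIF4A1 reaching 656, 485 and 534 CPM at the 2-cell stage (log2 fold change -1.07 ± 0.31, adjusted p = 0.0239). EIF4A3, the helicase of the exon junction complex, fell from 816, 788 and 774 CPM in morulae to 112, 99.7 and 127 in blastocysts (log2 fold change -2.81 ± 0.25, adjusted p = 3.29e-08). EIF4H, which stimulates eIF4A, rose in both late steps, from 49.4, 45.3 and 46.1 CPM at the 8-cell stage to 225, 242 and 260.4 in morulae and 626, 674 and 762 in blastocysts (log2 fold change 2.37 ± 0.25, adjusted p = 9.81e-07, then log2 fold change 1.505 ± 0.25, adjusted p = 8.07e-05). Its cofactor of like role, EIF4B, rose earlier, from 16.5, 23.9 and 20.5 CPM at MII to 52.3, 47.4 and 40.01 in 2-cell and 139.8, 220.2 and 168 at the 8-cell stage.

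EIF5A, the hypusine-carrying factor that helps ribosomes through stalls, was uneven between pools. Its levels were 20.3, 16.9 and 15.2 CPM at MII, 39.4, 37.4 and 92.9 at the 2-cell stage, 97.3, 111 and 196 at the 8-cell stage and 504, 352 and 541 in morulae. It rose at each of the 3 steps and fell to 252, 99.9 and 152 CPM in blastocysts, but the rise to 2-cell embryos (log2 fold change 1.69 ± 0.52, adjusted p = 0.0292) was lost without any 1 of the 3 MII transcriptomes or without 2-cell transcriptome C, at log2 values of 1.14 to 1.80. The rise to morulae (log2 fold change 1.79 ± 0.51, adjusted p = 0.0181) was lost without 8-cell transcriptome A or B or morula transcriptome A or C, at log2 values of 1.60 to 1.73. Its paralogue EIF5A2 did not exceed 20.2 CPM in any transcriptome and rose from 2.43, 2.64 and 2.78 CPM at the 2-cell stage to 11.997, 20.2 and 13.9 at the 8-cell stage (log2 fold change 2.55 ± 0.94, adjusted p = 0.0263). EIF6, which keeps the large subunit from joining too early, had the largest fall of the 52 factors to the MII oocyte, from 259.9, 329 and 272 CPM to 26.9, 35.5 and 26.3 (log2 fold change -3.28 ± 0.22, adjusted p = 6.62e-10). It had 34.6, 32.1 and 27.8 CPM at the 2-cell stage and rose to 652, 974 and 650.4 at the 8-cell stage (log2 fold change 4.59 ± 0.24, adjusted p = 1.79e-12).

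Of the 7 genes of the elongation list that were tested, 5 rose from 2-cell to 8-cell embryos, against 26.6% of all genes. These were EEF1A1, EEF1B2, EEF1D, EEF1G and EEF2. The list also holds the kinase EEF2K and EEF1E1, a protein of the tRNA synthetase complex. EEF1A1, the abundant carrier of aminoacyl-tRNA, had 784, 762 and 443 CPM at the 2-cell stage, 3348, 2282 and 2327 at the 8-cell stage, 5302, 5598 and 5026 in morulae and 7686, 10286 and 9965 in blastocysts. Its rise to the 8-cell embryo gave log2 fold change 2.00 ± 0.25, adjusted p = 5.78e-07, and that to the morula log2 fold change 1.001 ± 0.24, adjusted p = 0.00651. EEF1B2, an exchange factor for eEF1A, fell from 63.0, 40.3 and 40.3 CPM at MII to 11.4, 7.59 and 9.25 at the 2-cell stage (log2 fold change -2.34 ± 0.33, adjusted p = 3.43e-05) and then rose to 351, 316 and 198 at the 8-cell stage (log2 fold change 4.93 ± 0.37, adjusted p = 2.52e-10). EEF1D, another exchange factor, had 75.9, 100.5 and 65.7 CPM at GV, 23.2, 15.0 and 9.75 at MII, 15.1, 9.91 and 10.9 at the 2-cell stage and 105, 104 and 97.7 at the 8-cell stage. Both its fall to MII (log2 fold change -2.33 ± 0.43, adjusted p = 3.27e-04) and its rise to the 8-cell stage (log2 fold change 3.09 ± 0.45, adjusted p = 3.94e-06) passed. EEF1G, the structural subunit, rose from 58.5, 52.8 and 39.1 to 238, 130.1 and 136 CPM (log2 fold change 1.75 ± 0.34, adjusted p = 1.78e-04).

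EEF2, the translocase, had 16.9, 10.46 and 14.1 CPM at GV, 11.4, 11.4 and 6.42 at MII and 15.4, 14.5 and 10.0 at the 2-cell stage. It then had 127, 138 and 145 CPM at the 8-cell stage, 156, 168 and 122 in morulae and 397, 325 and 352 in blastocysts. Its rises to 8-cell embryos (log2 fold change 3.36 ± 0.30, adjusted p = 2.94e-09) and to blastocysts (log2 fold change 1.27 ± 0.27, adjusted p = 0.00142), were larger than the spread between pools. EEF2K, the kinase that inactivates eEF2, had its highest transcriptome levels at GV (19.1, 20.3 and 14.3 CPM) and was at 1.18, 0.829 and 0.4002 CPM in blastocysts, and passed in no single step. EEF1AKNMT fell from GV to MII oocytes (log2 fold change -1.90 ± 0.52, adjusted p = 0.0110) and rose from 17.1, 13.9 and 8.73 CPM in morulae to 64.97, 117 and 90.0 in blastocysts (log2 fold change 2.77 ± 0.54, adjusted p = 4.88e-04). EIF1AD fell from 114, 158 and 112 CPM at GV to 19.6, 14.5 and 9.16 at MII (log2 fold change -3.15 ± 0.39, adjusted p = 1.70e-06).

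Of the release and recycling factors, ETF1 (eRF1), which reads the stop codon, had the largest rise of all 52 factors from 2-cell to 8-cell embryos. Its transcriptome levels were 8.98, 11.4 and 8.12 CPM before and 387, 507 and 451 after (log2 fold change 5.56 ± 0.46, adjusted p = 1.09e-09). GSPT1 (eRF3a), its GTPase partner, had 215, 215 and 189.8 and 286, 401 and 328 CPM in that step and did not reach a 2-fold change. ABCE1, which recycles ribosomes, had 217, 198 and 270.1 CPM in morulae and fell to 44.1, 62.2 and 63.0 in blastocysts (log2 fold change -2.02 ± 0.48, adjusted p = 0.00346).

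**Figure D2:**
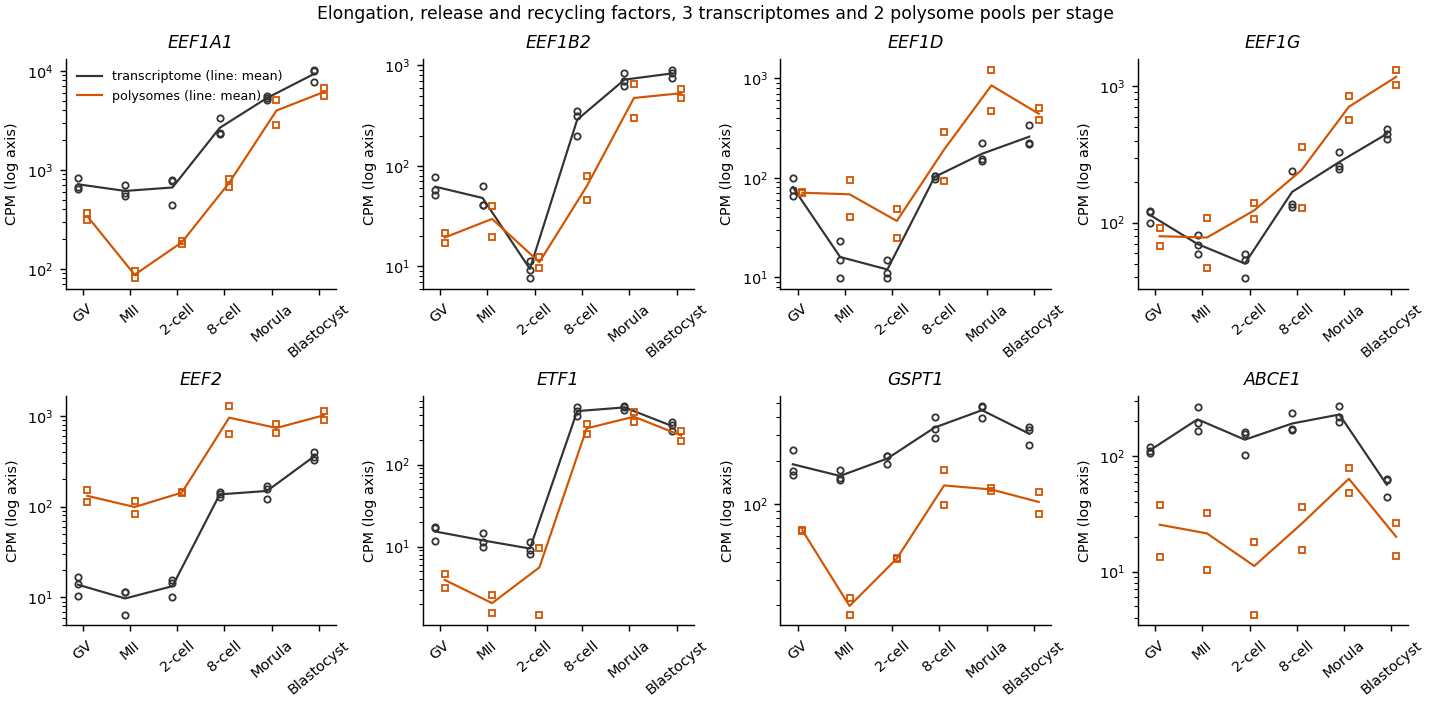
CPM (log axis) of 8 elongation, release and recycling factors by stage, with 3 transcriptomes (circles) and 2 polysome pools (squares) per stage and lines through the means. EEF2 is higher in polysomes at all 6 stages, GSPT1 and ABCE1 are lower at all 6, and EEF1A1 in polysomes is far below the transcriptome up to the 8-cell stage and near it in morulae and blastocysts.

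The next question was which factor mRNAs had a larger or smaller share in polysomes than in the transcriptome of the same stage. A gene was called at an adjusted p below 0.05 of edgeR, with no limit on the fold change. In GV oocytes, 6 factors were higher in polysomes and 29 lower, against 22.2% and 17.7% of all genes. In MII oocytes, 14 were higher and 29 lower (30.8% and 26.7% of all genes). In 2-cell embryos, 13 were higher and 30 lower (29.1% and 21.9%). In 8-cell embryos, 11 were higher and 28 lower (28% and 31%). In morulae, 12 were higher and 19 lower (26.5% and 25.2%), and in blastocysts 14 were higher and 16 lower (20% and 20.1%). The median log2 ratio over the factors was -1.24 at GV, -1.25 at MII, -1.51 at the 2-cell stage, -1.09 at the 8-cell stage, -0.58 in morulae and -0.42 in blastocysts, while that over all genes lay between -0.26 and 0.18. Without blastocyst pool A, 12 were higher and 10 lower in blastocysts.

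The same comparison with the monosome fractions F3-F5 in place of polysomes, an alternative chosen after seeing the data, also gave more factors lower than higher at every stage. It gave 11 higher and 23 lower at GV (31.8% and 20.9% of all genes), 17 and 25 at MII (34.7% and 24.9%) and 15 and 23 at the 2-cell stage (30.6% and 18%), 3 stages at which more of all genes were higher than lower. It gave 13 and 35 at the 8-cell stage (34.7% and 36.7% of all genes), 9 and 30 in morulae (29.6% and 29.3%) and 10 and 20 in blastocysts (17.9% and 25%). Gradients and transcriptomes were separate pools of oocytes or embryos of unequal size, and the part of this difference in handling was not tested.

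Across the 6 stages, 3 factors were higher in polysomes at every stage, EEF2, EIF3F and EIF6, while 9.92% of all genes were. Lower at every stage were 13 factors, against 5.78% of all genes. These were the 3 subunits of eIF2 (EIF2S1, EIF2S2 and EIF2S3), EIF2A, EIF5B, the eIF3 subunits EIF3A, EIF3E, EIF3H, EIF3J and EIF3M, EIF4A2, GSPT1 and ABCE1. A further 6 were higher at some stages and lower at others, EIF1, EIF1AD, EIF2B1, EIF3G, EIF4A3 and EIF4H. EIF2B5 and EIF4B passed at no stage. In single fractions of GV oocytes, EIF6 had 3688 and 2886 CPM in the free fraction F2 and 460 to 882 in F8-F10. EIF3F had 1103 and 1061 CPM in F2 and 133 to 212 in F8-F10. Both thus had a larger share in free RNA than in polysomes there, whereas EEF2 had 39.5 and 60.2 CPM in F2 and 51.9 to 213 in F8-F10.

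**Figure D3:**
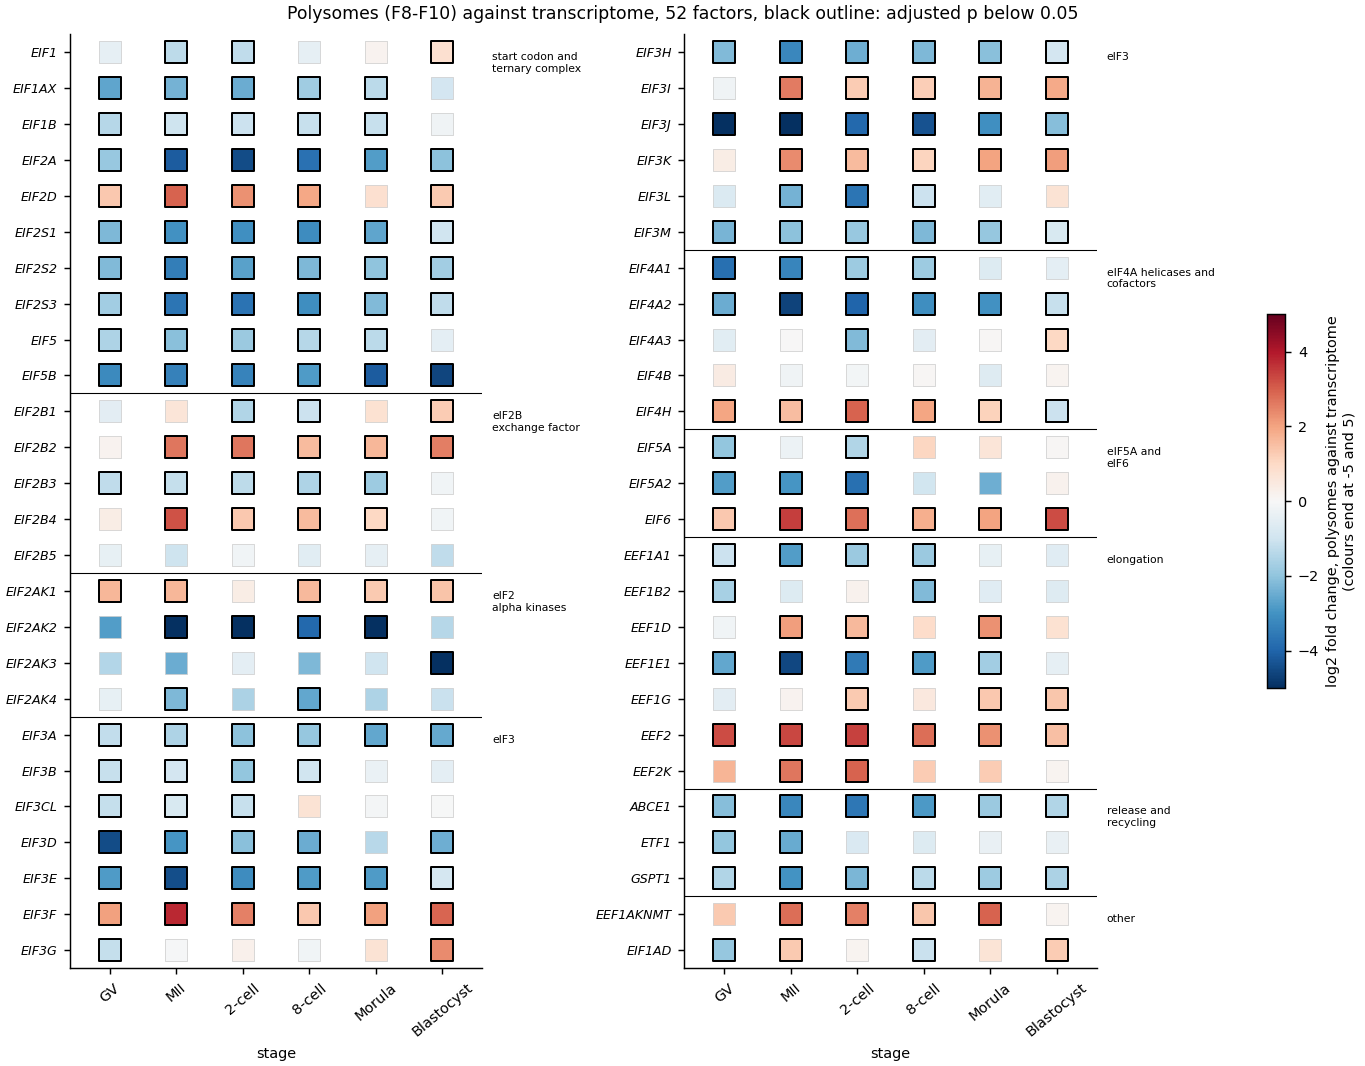
Log2 fold change of polysomes (F8-F10) against the transcriptome for the 52 factors tested, in rows by role and columns by stage, red for higher and blue for lower in polysomes. Black outlines mark an adjusted p below 0.05. EEF2, EIF3F and EIF6 are red with an outline in all 6 columns, and the eIF2 subunits are blue with an outline in all 6.

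EEF2 had 150.4 and 112 CPM in the 2 polysome pools of GV oocytes, beside 16.9, 10.46 and 14.1 in the transcriptomes (log2 fold change 3.25 ± 0.31 (SE), adjusted p = 1.77e-08). In 2-cell embryos it had 145 and 141 CPM in polysomes, beside 15.4, 14.5 and 10.0 (log2 fold change 3.42 ± 0.31, adjusted p = 5.19e-09). In blastocysts the pools had 903 and 1119 CPM, beside 397, 325 and 352 (log2 fold change 1.497 ± 0.30, adjusted p = 3.19e-04). Every pool lay above every transcriptome at these stages, and at the 8-cell stage (629 and 1277 CPM, log2 fold change 2.81 ± 0.30, adjusted p = 5.55e-08) and morulae (817 and 650.4 CPM, log2 fold change 2.30 ± 0.30, adjusted p = 1.29e-06) too. EIF6 had 303 and 353 CPM in the pools of MII oocytes, beside 26.9, 35.5 and 26.3 in the transcriptomes (log2 fold change 3.47 ± 0.24, adjusted p = 2.01e-11). It had 938 and 793 CPM in those of blastocysts, beside 98.5, 103 and 72.8 (log2 fold change 3.25 ± 0.23, adjusted p = 9.44e-10).

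Within eIF3, the subunits went in both directions at the same stage. EIF3F, a subunit with a deubiquitinase-like fold, had 77.9 and 97.4 CPM in the pools of MII oocytes, beside 6.64, 7.60 and 4.88 in the transcriptomes (log2 fold change 3.78 ± 0.28, adjusted p = 5.39e-11). In GV oocytes it had 187 and 175 beside 47.4, 35.0 and 47.5 CPM (log2 fold change 2.07 ± 0.26, adjusted p = 7.94e-07), and in blastocysts 571 and 649 beside 62.3, 96.6 and 82.6 (log2 fold change 2.92 ± 0.26, adjusted p = 1.18e-08). EIF3I and EIF3K were higher in polysomes at the 5 stages from MII oocytes to blastocysts. In single fractions of MII oocytes, EIF3I had 921 and 1597 CPM in the free fraction F2 and 349 to 707 in F8-F10. EIF3K had 1117 and 1668 CPM in F2 and 201 to 778 in F8-F10. EIF3J, the loosely bound subunit, had 0.832 and 0.838 CPM in the pools of GV oocytes, beside 22.8, 26.1 and 30.3 in the transcriptomes (log2 fold change -4.97 ± 0.80, adjusted p = 2.29e-05). In MII oocytes it had 0.252 and 1.001 beside 33.0, 23.4 and 16.4 CPM (log2 fold change -5.26 ± 0.82, adjusted p = 7.19e-06), and at the 8-cell stage 3.28 and 4.58 beside 70.4, 92.7 and 81.8 (log2 fold change -4.37 ± 0.77, adjusted p = 4.16e-05). EIF3D, the subunit that can bind the cap, had 5.42 and 0.865 CPM in the pools of GV oocytes, beside 66.0, 72.0 and 73.5 (log2 fold change -4.48 ± 0.91, adjusted p = 3.45e-04). EIF3G changed direction, being lower in polysomes of GV oocytes (log2 fold change -1.18 ± 0.35, adjusted p = 0.00913) and higher in those of blastocysts (log2 fold change 2.38 ± 0.34, adjusted p = 5.25e-06).

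Among the start codon and ternary complex factors, 8 to 9 of 10 were lower in polysomes at each stage up to the 8-cell embryo. In morulae 8 were lower, and in blastocysts 5. Of all genes, 17.7% were lower at GV, 26.7% at MII, 21.9% in 2-cell embryos and 31% in 8-cell embryos. The shares were 25.2% in morulae and 20.1% in blastocysts. EIF2D, a factor of reinitiation, was higher at the 5 stages other than the morula, with 94.1 and 87.3 CPM in the pools of MII oocytes beside 9.04, 10.3 and 16.3 in the transcriptomes (log2 fold change 2.93 ± 0.42, adjusted p = 1.99e-06). EIF5B had 14.2 and 16.4 CPM in the pools of blastocysts, beside 612, 231 and 254 (log2 fold change -4.58 ± 0.41, adjusted p = 9.08e-09), and 13.0 and 12.1 in those of morulae, beside 227, 233 and 209.6 (log2 fold change -4.16 ± 0.40, adjusted p = 1.63e-08). EIF2A had 13.6 and 2.34 CPM in the pools of 2-cell embryos, beside 222, 186 and 126 (log2 fold change -4.48 ± 0.71, adjusted p = 1.27e-05). EIF1 turned from lower at MII (log2 fold change -1.30 ± 0.30, adjusted p = 6.22e-04) to higher in blastocysts, at 1201 and 1503 CPM beside 806, 685 and 821 (log2 fold change 0.81 ± 0.28, adjusted p = 0.0234). EIF1B was lower at the 5 stages before the blastocyst, with log2 fold changes of -1.04 to -1.41.

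The eIF2B subunits differed from one another. EIF2B2 was higher in polysomes at the 5 stages after GV, with 49.6 and 43.3 CPM in the pools of 2-cell embryos beside 7.23, 7.67 and 7.14 in the transcriptomes (log2 fold change 2.66 ± 0.27, adjusted p = 2.56e-08). EIF2B4 was higher at the 4 stages from MII oocytes to morulae, with 321 and 204 CPM beside 31.7, 31.2 and 24.1 at MII (log2 fold change 3.18 ± 0.31, adjusted p = 6.27e-09). EIF2B3 was lower at the 5 stages before the blastocyst, with log2 fold changes of -1.20 to -1.80. Of the kinases, EIF2AK1 was higher at 5 stages, with 303 and 300.2 CPM in the pools of MII oocytes beside 85.1, 106 and 91.5 (log2 fold change 1.68 ± 0.31, adjusted p = 7.68e-05). EIF2AK2 had 0 counts in both pools of 2-cell embryos, where its 3 transcriptomes had 9 to 15 counts, and with a floor of 3 counts per library its share in polysomes was at least 9.72-fold lower. The test did not pass without pool A or B, at adjusted p of 0.0567 and 0.0532. It had 0 and 4.80 CPM in the pools of 8-cell embryos, beside 49.2, 27.7 and 32.2 (log2 fold change -3.91 ± 1.49, adjusted p = 0.0287), a call that was lost without 8-cell transcriptome A (log2 -3.63) or without pool A (log2 -2.92). In MII oocytes its pools had 0.0360 and 0.143 CPM, beside 4.12, 11.6 and 5.59, a call lost without pool A (adjusted p = 0.0529). The pools of morulae had at most 1 count. EIF2AK3 had 0.740 and 0.0426 CPM in the pools of blastocysts, beside 9.11, 14.1 and 16.8 (log2 fold change -5.07 ± 1.28, adjusted p = 0.00295), while with F3-F5 in place of polysomes it did not pass (adjusted p = 0.338).

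EIF4A2 was lower in polysomes at all 6 stages, most of all at MII, at 42.3 and 41.9 CPM beside 952, 912 and 1286 (log2 fold change -4.64 ± 0.30, adjusted p = 8.69e-12). EIF4A1 was lower at the first 4 stages, with 64.5 and 47.1 CPM in the pools of GV oocytes beside 711, 848 and 723 (log2 fold change -3.77 ± 0.41, adjusted p = 1.14e-07), and in blastocysts the pools had 406 and 476 CPM beside 639, 521 and 695. EIF4H was higher at the 5 stages up to the morula, with 152 and 212 CPM beside 49.4, 45.3 and 46.1 at the 8-cell stage (log2 fold change 1.95 ± 0.27, adjusted p = 1.65e-06), and lower in blastocysts, with 330.0 and 321 beside 626, 674 and 762 (log2 fold change -1.08 ± 0.28, adjusted p = 0.00353). EIF5A2 was lower in the pools of the first 3 stages.

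Of the elongation factors other than EEF2, EEF1A1 was lower in polysomes at the first 4 stages. Its pools had 80.2 and 94.0 CPM at MII, beside 709, 546 and 580.1 in the transcriptomes (log2 fold change -2.81 ± 0.31, adjusted p = 3.44e-08), and 677 and 802 at the 8-cell stage, beside 3348, 2282 and 2327 (log2 fold change -1.84 ± 0.29, adjusted p = 1.12e-05). In morulae its pools had 5116 and 2816 CPM and in blastocysts 5508 and 6688, and it did not pass at either stage. EEF1D was higher at MII, 2-cell embryos and morulae, with 1228 and 472 CPM in the pools of morulae beside 223, 146 and 154 (log2 fold change 2.28 ± 0.45, adjusted p = 2.17e-04). EEF1G was higher at the 2-cell stage, morulae and blastocysts, with 1017 and 1326 CPM in the pools of blastocysts beside 485, 409 and 449 (log2 fold change 1.39 ± 0.37, adjusted p = 0.00404). EEF1B2 was lower at GV and 8-cell embryos, with 46.2 and 78.6 CPM in the latter beside 351, 316 and 198 (log2 fold change -2.21 ± 0.38, adjusted p = 3.57e-05). EEF1E1, a protein of the tRNA synthetase complex, was lower at the 5 stages before the blastocyst, with log2 fold changes of -1.74 to -4.55. EEF2K had 89.6 and 136 CPM in the pools of 2-cell embryos, beside 17.3, 11.8 and 14.7 (log2 fold change 2.95 ± 0.98, adjusted p = 0.0150). This call was lost without transcriptome B (adjusted p = 0.0542, edgeR) and with only F9 and F10 taken as polysomes (adjusted p = 0.0730, edgeR). Without pool B the log2 value was 2.61. EEF1AKNMT had 30.4 and 173 CPM in the pools of morulae, beside 17.1, 13.9 and 8.73 (log2 fold change 2.94 ± 0.57, adjusted p = 1.58e-04), and without pool B the log2 value was 1.19 and did not pass.

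GSPT1 was lower in polysomes at all 6 stages, with 17.1 and 22.3 CPM in the pools of MII oocytes beside 171, 151 and 147 (log2 fold change -2.99 ± 0.29, adjusted p = 7.20e-09) and 121 and 85.3 in those of blastocysts beside 258, 323 and 339 (log2 fold change -1.57 ± 0.27, adjusted p = 7.30e-05). ABCE1 was as well, with 18.1 and 4.21 CPM in the pools of 2-cell embryos beside 160.2, 154 and 101 (log2 fold change -3.63 ± 0.61, adjusted p = 2.72e-05). ETF1 was lower at GV, at 3.15 and 4.70 CPM beside 16.9, 11.8 and 17.1 (log2 fold change -1.96 ± 0.46, adjusted p = 0.00158), and at MII, and from the 2-cell embryo on it did not pass. Its pools of 8-cell embryos had 236 and 316 CPM and those of 2-cell embryos 1.47 and 9.69 CPM.

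Within a gradient, the question was whether the share of a factor mRNA rose or fell from monosomes towards heavier polysomes. The measure was Spearman's rho between CPM and the fraction number over the 16 libraries F3-F10 of both gradients of a stage, with CPM scaled over all 138 libraries, and a permutation test of 100000 draws and an adjusted p below 0.05 as the threshold. This p concerns the order of the fractions in 2 gradients and not the spread between pools. In GV oocytes, 15 of 49 factors tested rose and 11 fell, against 18% and 18.6% of all genes. In MII oocytes, 5 of 49 rose and 11 fell (7.27% and 12.3% of all genes), and at the 2-cell stage 2 of 49 rose and 9 fell (10.7% and 9.87%). In 8-cell embryos, 12 of 52 rose and 2 fell (6.46% and 8.63%). In morulae, 4 of 51 rose and 0 fell (0.879% and 0.646%), and in blastocysts 4 of 51 rose and 1 fell (6.07% and 1.73%). The median rho over the factors was 0.417 at the 8-cell stage and -0.249 at the 2-cell stage, beside -0.0828 and -0.0473 over all genes. At an unadjusted p below 0.05, 2 factors fell in morulae. The edgeR test of F8-F10 against F3-F5 within gradients called 1 factor at GV and at MII. It called 0 in 2-cell embryos, morulae and blastocysts, and its calls in 8-cell embryos are given below. On CPM without TMM factors, 3 rose and 1 fell in morulae and 5 rose in blastocysts. With 1 gradient alone, which leaves 8 libraries, the counts were lower at every stage, down to 0 in blastocysts and morulae, and in 2-cell and 8-cell embryos without gradient B.

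In GV oocytes, the rising factors were led by initiation. EIF1AX had 2.08 and 1.44 CPM on average in F3-F5 of gradients A and B and 32.2 and 51.3 in F8-F10 (rho = 0.947, adjusted p = 2.12e-04, permutation test). EIF2S2 had 7.64 and 6.57 CPM in F3-F5 and 28.4 and 33.4 in F8-F10 (rho = 0.947, adjusted p = 2.12e-04, permutation test), and EIF5B had 8.200 and 5.81 CPM in F3-F5 and 48.7 and 41.3 in F8-F10 (rho = 0.935, adjusted p = 2.12e-04, permutation test). In each of these, both gradients showed the higher level in polysomes. Of the 10 start codon and ternary complex factors, 7 rose at GV, against 18% of all genes. Among the falling factors, EEF1D had 191 and 135 CPM in F3-F5 and 66.2 and 64.9 in F8-F10 (rho = -0.894, adjusted p = 3.16e-04, permutation test) and EEF2K had 105 and 123 CPM in F3-F5 and 61.6 and 44.6 in F8-F10 (rho = -0.888, adjusted p = 2.12e-04, permutation test). EEF2 fell too, from 195 and 262 CPM in F3-F5 to 141 and 102 in F8-F10 (rho = -0.686, adjusted p = 0.0170, permutation test). Its levels in the free fractions F1-F2 of GV oocytes were 40.2 and 64.1 CPM, below both. Over F1-F10, the fall of EEF2K did not pass (rho = -0.290, adjusted p = 0.355, permutation test), and without gradient B neither EEF2K nor EIF2S2 passed (adjusted p = 0.0587 for both).

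In MII oocytes the rising factors were EIF3E, EIF6, EIF4A2, EIF1 and EIF3L. EIF3E had 23.4 and 14.8 CPM in F3-F5 and 78.1 and 139 in F8-F10 (rho = 0.840, adjusted p = 0.00298, permutation test), and EIF6 had 125 and 205 CPM in F3-F5 and 254 and 329 in F8-F10 (rho = 0.757, adjusted p = 0.0114, permutation test). The steepest falls were those of EIF2B3, with 62.7 and 76.9 CPM in F3-F5 and 11.2 and 12.9 in F8-F10 (rho = -0.935, adjusted p = 6.87e-04, permutation test), and EIF4B, with 134 and 116 CPM in F3-F5 and 7.70 and 19.7 in F8-F10 (rho = -0.894, adjusted p = 6.87e-04, permutation test). EEF1A1 fell as well, with 311 and 336 CPM in F3-F5 and 68.1 and 80.8 in F8-F10 (rho = -0.805, adjusted p = 0.00460, permutation test). Over F1-F10 in place of F3-F10, EIF6, EIF2B3 and EIF4B did not pass at MII (rho = 0.453, -0.308 and -0.323, adjusted p = 0.183, 0.411 and 0.385, permutation test). Without gradient A, EIF3E, EIF6 and EIF4B did not pass (adjusted p of 0.153 to 0.278), and without gradient B, EIF3E and EIF6 did not (adjusted p of 0.0918 to 0.159).

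In 2-cell embryos, EIF5B had 11.6 and 6.65 CPM in F3-F5 and 43.3 and 54.2 in F8-F10 (rho = 0.941, adjusted p = 0.00209, permutation test), and EIF6 was the other riser, with 108 and 85.1 CPM in F3-F5 and 183 and 187 in F8-F10 (rho = 0.763, adjusted p = 0.0106, permutation test). EIF2B4 had 542 and 378 CPM in F3-F5 and 183 and 169 in F8-F10 (rho = -0.870, adjusted p = 0.00272, permutation test) and EIF2B1 had 95.5 and 68.6 CPM in F3-F5 and 33.2 and 23.7 in F8-F10 (rho = -0.852, adjusted p = 0.00321, permutation test), and these were the steepest falls. None of these 4 factors passed over F1-F10 (adjusted p of 0.0807 to 0.447) or without gradient B (adjusted p of 0.280 to 0.428), and EIF2B1 did not pass without gradient A (adjusted p = 0.0569, permutation test).

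In 8-cell embryos most trends that passed were upward. EIF2S2 had 14.1 and 11.7 CPM in F3-F5 and 125 and 59.8 in F8-F10 (rho = 0.870, adjusted p = 0.00224, permutation test), and EIF1AX had 36.9 and 20.5 CPM in F3-F5 and 214 and 291 in F8-F10 (rho = 0.834, adjusted p = 0.00319, permutation test). The other risers were EIF2S3, EIF3A, EIF3CL, EIF3L, EIF4A2, EIF4A3, EIF5, EIF5B and the release factors ETF1 and GSPT1. ETF1 had 64.0 and 86.4 CPM in F3-F5 and 239 and 345 in F8-F10 (rho = 0.751, adjusted p = 0.0155, permutation test) and GSPT1 had 12.5 and 29.0 CPM in F3-F5 and 102 and 189.5 in F8-F10 (rho = 0.657, adjusted p = 0.0484, permutation test). EIF1 and EEF2K fell at this stage. EIF1 had 5281 and 3879 CPM in F3-F5 and 1951 and 1200.5 in F8-F10 (rho = -0.799, adjusted p = 0.00708, permutation test). EEF2K had 111 and 178 CPM in F3-F5 and 23.1 and 5.34 in F8-F10 (rho = -0.770, adjusted p = 0.0114, permutation test). Single fractions could differ widely between gradients. In F8, EEF2K had 69.2 CPM in gradient A and 0.0956 in gradient B. In F9, EEF1B2 had 0 CPM in gradient A and 107 in gradient B. The edgeR test of F8-F10 against F3-F5 within gradients called 10 factors higher and 1 lower in polysomes of 8-cell embryos. Of all genes, it called 4.06% higher and 4.68% lower. At each other stage it called 1 factor or fewer, and shares of all genes are not given there. Over F1-F10, the trends of EIF2S2, EIF1 and EEF2K did not pass (adjusted p of 0.0650 to 0.111). Those of EIF2S2, EIF1AX and EEF2K did not pass without gradient A (adjusted p of 0.0838 to 0.124), and those of EIF2S2, EIF1AX, EIF1 and EEF2K did not without gradient B (adjusted p of 0.229 to 0.289).

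In morulae, EIF3K had 319 and 206 CPM in F3-F5 and 792 and 798 in F8-F10 (rho = 0.864, adjusted p = 0.0132, permutation test) and ABCE1 had 9.95 and 7.26 CPM in F3-F5 and 35.3 and 78.6 in F8-F10 (rho = 0.840, adjusted p = 0.0203, permutation test). The exchange factors EEF1B2 and EEF1D rose there too, with rho of 0.793 and 0.793. Neither EIF3K nor ABCE1 passed with 1 gradient alone (adjusted p of 0.217 to 0.353), and ABCE1 did not pass over F1-F10 (adjusted p = 0.336, permutation test). In blastocysts, EEF2 had 529 and 513 CPM in F3-F5 and 831 and 1005 in F8-F10 (rho = 0.828, adjusted p = 0.00803, permutation test) and EIF3K had 268 and 361 CPM in F3-F5 and 603 and 654 in F8-F10 (rho = 0.828, adjusted p = 0.00803, permutation test). EIF6 (rho = 0.817) and EEF1D (rho = 0.775) also rose in blastocysts, and EEF1D had fallen at GV. EIF1 was the single factor that fell, with 1641 and 1880.2 CPM in F3-F5 and 1104 and 1344 in F8-F10 (rho = -0.710, adjusted p = 0.0406, permutation test), and it did not pass on CPM without TMM factors (rho = -0.60) or over F1-F10 (rho = -0.347). With 1 gradient alone EEF2, EIF3K and EIF1 did not pass in blastocysts (adjusted p of 0.0922 to 0.594). Whether a trend differed between stages was not tested. EIF1 passed in both directions, rising at MII and falling at the 2-cell stage, 8-cell embryos and blastocysts.

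**Figure D4:**
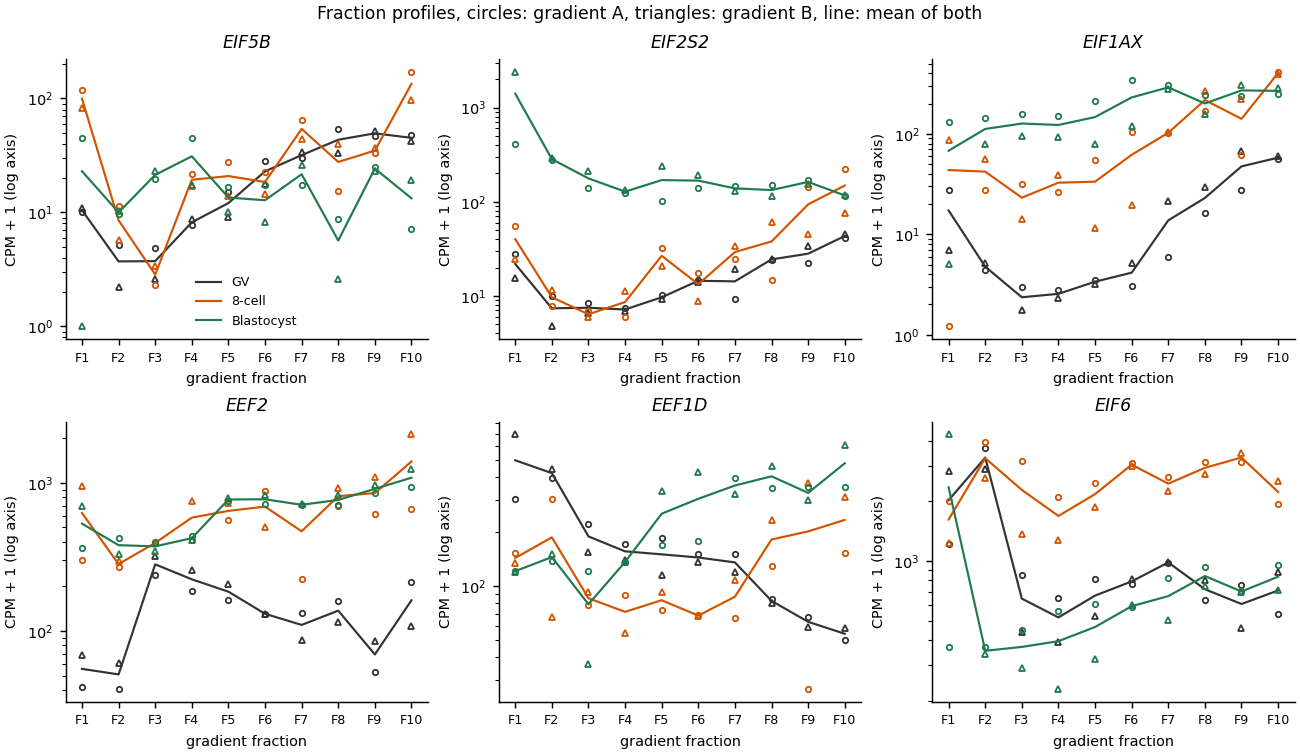
CPM + 1 (log axis) of 6 factors over the gradient fractions F1 to F10 in GV oocytes, 8-cell embryos and blastocysts, with circles for gradient A, triangles for gradient B and lines through their means. EIF5B, EIF2S2 and EIF1AX climb from F3 to F10 in GV oocytes and 8-cell embryos. EEF2 and EEF1D decline from F3 to F10 in GV oocytes and climb in blastocysts.

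The trend within gradients and the ratio to the transcriptome were of opposite sign for most rising factors at GV and 8-cell embryos, and of the same sign for most falling factors at MII and 2-cell embryos. In GV oocytes, 14 of the 15 rising factors were lower in polysomes than in the transcriptome, and the other, EEF1AKNMT, did not pass. Of the 11 falling factors there, EEF2 and EIF3F were higher in polysomes than in the transcriptome, 4 were lower and 5 did not pass. In MII oocytes, 4 of the 5 rising factors were lower in polysomes and EIF6 was higher, while of the 11 falling factors 7 were lower, 3 were higher and EIF4B did not pass. In 2-cell embryos, EIF6 rose and was higher in polysomes and EIF5B rose and was lower, while of the 9 falling factors 6 were lower, 2 were higher and EIF4B did not pass. In 8-cell embryos, 9 of the 12 rising factors were lower in polysomes than in the transcriptome and 3 did not pass, and neither of the 2 falling factors passed. In morulae, EEF1D and EIF3K rose and were higher in polysomes, ABCE1 rose and was lower, and EEF1B2 did not pass. In blastocysts, 3 of the 4 rising factors (EEF2, EIF3K and EIF6) were higher in polysomes and EEF1D did not pass, and the falling EIF1 was higher. At GV, EIF5B had 51.6 and 44.9 CPM in the 2 polysome pools beside 349, 589.6 and 376 in the transcriptomes. On the scale of the single fractions it had 8.200 and 5.81 CPM in F3-F5 and 48.7 and 41.3 in F8-F10. Its polysome pools were below every transcriptome, and its monosome fractions were below its polysome fractions. Both measures use the same F8-F10 libraries.

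**Figure D5:**
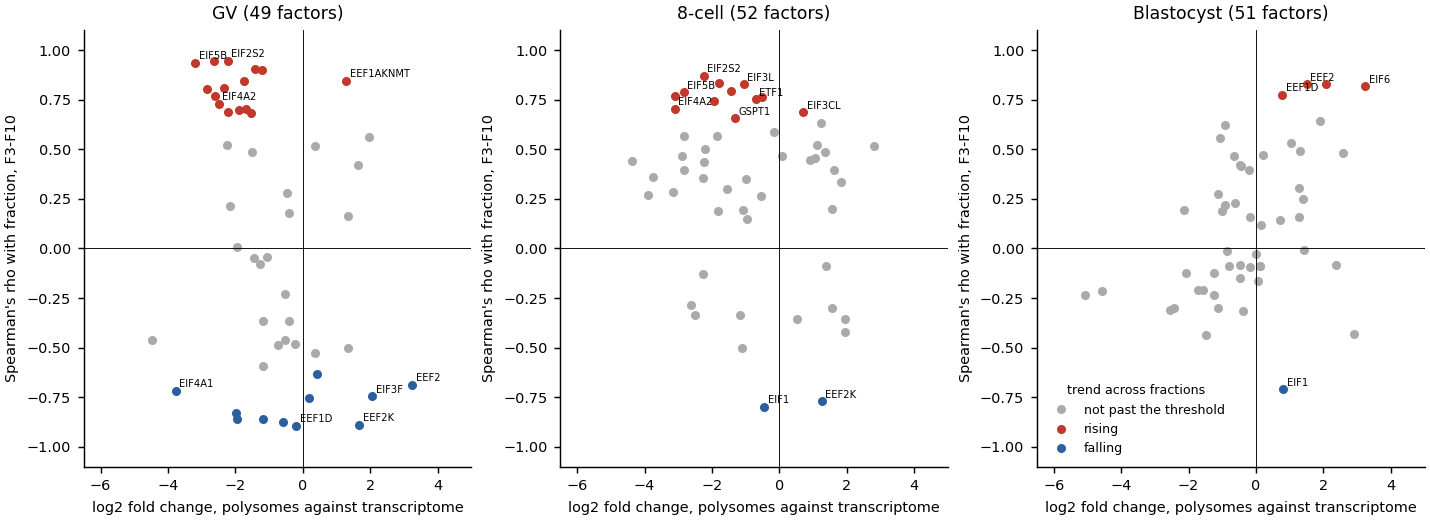
Log2 fold change of polysomes against the transcriptome (x axis) and Spearman's rho of CPM with the fraction number over F3-F10 (y axis) for the factors tested in both, in GV oocytes (49), 8-cell embryos (52) and blastocysts (51). Red and blue points passed the test of the trend. In GV oocytes, 14 of the 15 red points lie left of 0 and past the threshold of the ratio, and in blastocysts 3 of the 4 red points lie right of 0 and past it.

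The ratio of polysomes to transcriptome was also compared between consecutive stages, by the interaction term of the edgeR model at an adjusted p below 0.05. From GV to MII oocytes, the ratio rose for 8 factors and fell for 7, against 7.14% and 3.5% of all genes. From MII oocytes to 2-cell embryos it rose for 0 (0.725% of all genes) and fell for 4 (1.08%). From 2-cell to 8-cell embryos it rose for 4 (3.45%) and fell for 2 (8.72%). From 8-cell embryos to morulae it rose for 4 (7.06%) and fell for 0 (5.41%), and from morulae to blastocysts it rose for 7 (6.04%) and fell for 2 (6.24%). At an unadjusted p below 0.05, edgeR had 6 rises in the step to the 2-cell embryo and 1 fall in the step to morulae, where DESeq2 called 1 and 0. DESeq2 also called 5 rises and 5 falls from 2-cell to 8-cell embryos.

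EIF1AD had the largest gain from GV to MII oocytes. Its pools had 35.6 and 30.6 CPM at GV, beside 114, 158 and 112 in the transcriptomes, and 23.1 and 48.5 at MII, beside 19.6, 14.5 and 9.16 (change of the log2 ratio 3.26 ± 0.58, adjusted p = 4.89e-04). EIF3I gained as well, with pools of 232 and 247 CPM at GV and 430.1 and 775 at MII while the transcriptomes went from 258, 303 and 281 to 97.2, 99.2 and 99.3 (2.84 ± 0.34, adjusted p = 7.46e-06). EIF2B2, EIF2B4, EIF3F, EIF3K, EIF6 and EEF1D also gained, and the ratio shares its transcriptome libraries with the step of the transcriptome described above. The ratio of EIF4A2 decreased the most (-2.14 ± 0.34, adjusted p = 1.59e-04), with pools of 66.8 and 51.996 CPM at GV and 42.3 and 41.9 at MII. EEF1E1 followed, with pools of 11.05 and 12.7 and 4.86 and 6.72 CPM (-1.96 ± 0.54, adjusted p = 0.0195), a call lost without GV pool B or MII pool A. EEF1A1, EIF2S3, EIF3E, EIF3L and GSPT1 decreased in this step too.

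From MII oocytes to 2-cell embryos, the ratio fell for EIF2B1, EIF2B4, EIF3I and EIF4A3. EIF4A3 had pools of 453 and 236 CPM at MII and 61.2 and 71.2 at the 2-cell stage, while the transcriptomes had 292, 331 and 395 and 348, 305 and 260.4 (change of the log2 ratio -2.22 ± 0.37, adjusted p = 0.00375). EIF2B1, the alpha subunit of eIF2B, had pools of 54.8 and 101 CPM at MII and 37.4 and 27.1 at the 2-cell stage, while the transcriptomes had 45.9, 52.4 and 49.2 and 97.7, 93.8 and 86.2 (change of the log2 ratio -2.18 ± 0.47, adjusted p = 0.0189). Both had less in polysomes of the embryo than of the oocyte. The call of EIF2B1 was lost without MII pool B or 2-cell pool B, at -1.97 to -1.67.

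From 2-cell to 8-cell embryos, EIF3L, EIF5A, EIF3CL and EIF4A3 gained. EIF3L had pools of 103 and 66.5 CPM in 2-cell and 265 and 413 at the 8-cell stage, while the transcriptomes had 1128, 1255 and 829 and 683, 669 and 765 (change of the log2 ratio 2.60 ± 0.43, adjusted p = 3.52e-04). EIF5A had pools of 16.1 and 23.7 and 196 and 367 CPM, beside transcriptomes of 39.4, 37.4 and 92.9 and 97.3, 111 and 196 (change of the log2 ratio 2.57 ± 0.80, adjusted p = 0.0362). This call was lost without any 1 of 6 libraries, namely 2-cell transcriptome C, both 2-cell pools, 8-cell transcriptomes A and B and 8-cell pool B, at 2.01 to 2.89. EEF1B2 and EIF3F decreased. EEF1B2 had pools of 9.62 and 12.4 CPM in 2-cell and 46.2 and 78.6 at the 8-cell stage (change of the log2 ratio -2.43 ± 0.51, adjusted p = 0.00317), so its share rose less in polysomes than in the transcriptome. EIF3F had pools of 67.8 and 77.2 and 299 and 252 CPM, beside transcriptomes of 13.6, 12.5 and 12.3 and 105, 90.9 and 124 (change of the log2 ratio -1.14 ± 0.37, adjusted p = 0.0450). Its call was lost without any 1 of 9 of the 10 libraries compared, 8-cell transcriptome B being the exception, at -1.26 to -1.01, and with the replicate letter as a block (adjusted p = 0.0609).

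From 8-cell embryos to morulae, EIF2B1, EIF1AD, EEF1B2 and EEF1A1 gained. EIF2B1 had pools of 34.8 and 41.6 CPM at the 8-cell stage and 233 and 112 in morulae, beside transcriptomes of 68.3, 83.5 and 88.2 and 94.9, 83.5 and 126 (change of the log2 ratio 1.83 ± 0.47, adjusted p = 0.0124). Without morula pool A the value was 1.21. The call was lost with only F9 and F10 taken as polysomes (adjusted p = 0.0703, edgeR). EIF1AD had pools of 51.8 and 63.9 and 215 and 97.2 CPM, beside transcriptomes of 108, 157 and 112 and 86.1, 90.0 and 112 (change of the log2 ratio 1.82 ± 0.56, adjusted p = 0.0351). Its call was lost without 8-cell transcriptome B, 8-cell pool A, morula transcriptome A or B or morula pool A, at 1.14 to 1.77. EEF1B2 (change of the log2 ratio 1.60 ± 0.50, adjusted p = 0.0356) and EEF1A1 (change of the log2 ratio 1.42 ± 0.39, adjusted p = 0.0171) both act in the delivery of aminoacyl-tRNA, and EEF1B2 had 647 and 301 CPM in the pools of morulae.

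From morulae to blastocysts, 7 factors gained, EIF3E, EIF4A2, EIF3G, EIF2S1, EIF2B3, EIF3L and EIF6. EIF3E had pools of 69.7 and 126 CPM in morulae and 138 and 209 in blastocysts, beside transcriptomes of 659, 739 and 703 and 322, 273 and 358 (change of the log2 ratio 1.97 ± 0.45, adjusted p = 0.00690). EIF4A2 had pools of 134 and 93.3 and 141 and 132 CPM, beside transcriptomes of 839, 966 and 989 and 297, 299.6 and 309 (change of the log2 ratio 1.89 ± 0.34, adjusted p = 0.00101). The pools of both stages were close for EIF4A2, and those of EIF3E did not overlap. EEF1AKNMT and EIF4H decreased. EIF4H had pools of 590.5 and 497 CPM in morulae and 330.0 and 321 in blastocysts (change of the log2 ratio -2.25 ± 0.39, adjusted p = 6.67e-04). EEF1AKNMT had pools of 30.4 and 173 and 121 and 79.2 CPM (change of the log2 ratio -2.79 ± 0.81, adjusted p = 0.0256), with large spread between the pools of morulae, and its call was lost without morula transcriptome C, morula pool B, blastocyst transcriptome B or blastocyst pool B, at -2.56 to -1.05.

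The counts of ratio changes depended on single libraries. Shares of all genes under these settings are not given, so the counts cannot set the factors apart from genes in general. Without MII pool A, 8 ratios rose and 4 fell from GV to MII. Without 8-cell polysome pool B, the step from 2-cell to 8-cell embryos held 12 calls in place of 6, and that to morulae 14 in place of 4. Without morula pool B, the step to morulae held 12 calls and that to blastocysts 15 in place of 9, and without blastocyst pool B or blastocyst transcriptome B the latter held 5. Without blastocyst pool A, 3 ratios rose and 4 fell in that step. Without 2-cell pool A, the step from 2-cell to 8-cell embryos held 3. Without 8-cell pool A, 8-cell transcriptome B, morula pool A or morula transcriptome B, the step to morulae held 2 calls. The step from MII to 2-cell held 2 calls without any 1 of the 3 MII transcriptomes, MII pool B or 2-cell transcriptome A, and 1 call without 2-cell pool B.

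Several translation factor mRNAs carry a 5' terminal oligopyrimidine (TOP) motif, through which the mTOR kinase and LARP1 control their translation in somatic cells. Of 17 such genes among the factors, 16 were tested. From 2-cell to 8-cell embryos, 12 of 16 rose in the transcriptome, and of the 36 other factors 17 rose and 3 fell. Of all genes, 26.6% rose and 23.5% fell in that step. From GV to MII oocytes, 4 of 16 rose and 5 fell (6.61% and 10.5% of all genes). In polysomes, 2 of the 16 were higher and 9 lower than in the transcriptome of GV oocytes (22.2% and 17.7% of all genes). Their median log2 ratio was -1.13, beside -1.44 for the other 36. In blastocysts, 5 were higher and 6 lower (20% and 20.1% of all genes), with medians of -0.24 and -0.42. Across the fractions, 7 of the 16 rose and 5 fell at GV (18% and 18.6% of all genes), and 2 rose and 4 fell at MII (7.27% and 12.3%). In 2-cell embryos 3 fell (9.87% of all genes), and 3 rose at the 8-cell stage, 3 in morulae and 3 in blastocysts (6.46%, 0.879% and 6.07%). Their median rho went from -0.260 at the 2-cell stage to 0.508 at the 8-cell stage and was 0.0651 in blastocysts, beside -0.0473, -0.0828 and 0.171 over all genes.

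Genes that modify, regulate or assist the factors were taken from 3 further lists, of which 34 genes were in the table and all were tested. The modifying enzymes (14 genes) make hypusine on eIF5A or diphthamide on eEF2, or methylate eEF1A, eEF2 or eRF1, and 6 rose and 3 fell from 2-cell to 8-cell embryos. Of the 10 genes of rescue, reinitiation and the integrated stress response, 4 rose and 1 fell in that step. Among the 10 genes of the mTOR axis 2 rose and 2 fell, and of all genes 26.6% rose and 23.5% fell. DENR, a reinitiation factor that works with MCTS1, had 2.51, 4.64 and 3.91 CPM in the transcriptomes of 2-cell embryos and 172, 282 and 232 in those of 8-cell embryos (log2 fold change 5.95 ± 0.53, adjusted p = 2.61e-09). In polysomes of MII oocytes, 8 of the 14 modifying enzymes were higher than in the transcriptome and 5 lower. For the mTOR axis 5 of 10 were higher and 3 lower, beside 30.8% and 26.7% of all genes. DOHH, which completes hypusine on eIF5A, had 247 and 203 CPM in the pools of MII oocytes, beside 2.52, 3.75 and 2.14 in the transcriptomes (log2 fold change 6.32 ± 0.40, adjusted p = 6.14e-12). PDCD4, an inhibitor of eIF4A, had 2.02 and 1.70 CPM in the pools of morulae, beside 85.7, 80.4 and 91.1 (log2 fold change -5.52 ± 0.98, adjusted p = 5.84e-05). DPH5, an enzyme of diphthamide synthesis, had 0 counts in both pools of 8-cell embryos and 196 to 419 counts in the transcriptomes, and with a floor of 3 counts per library its share in polysomes was at least 256-fold lower.

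Among these 34 genes, the largest changes of the transcriptome in other steps were those of HBS1L, a ribosome rescue factor, which rose from GV to MII oocytes (log2 fold change 1.73 ± 0.26), and of the eEF2 methyltransferase EEF2KMT, which fell (-3.18 ± 0.65). From MII oocytes to 2-cell embryos, DPH1, which starts diphthamide synthesis, rose (2.57 ± 0.71) and DENR fell (-2.06 ± 0.45). The levels of DPH1 were low, with 0.114, 0.406 and 0.238 CPM at MII and 1.98, 0.799 and 1.88 at the 2-cell stage. PPP1R15A, a subunit of the phosphatase of eIF2 alpha, fell from 2-cell to 8-cell embryos (-1.91 ± 0.47), and PELO, the partner of HBS1L, fell from 8-cell embryos to morulae (-1.94 ± 0.46). From morulae to blastocysts, LARP1 rose (2.66 ± 0.44) and the eEF1A methyltransferase EEF1AKMT2 fell (-3.56 ± 0.83). In polysomes against the transcriptome, TSC2, an inhibitor of mTOR signalling, led at GV (4.85 ± 0.66) and the S6 kinase RPS6KB2 at the 2-cell stage (5.53 ± 0.70), while DOHH led at the other 4 stages. The size of the RPS6KB2 value rests on low transcriptome levels of 0.152, 0.160 and 0.526 CPM, beside 12.2 and 14.4 in the pools.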

How the data were processed

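The authors quantified RNA-seq reads of the whole series with Salmon and deposited 1 table of expected counts per gene symbol, in which 11.7% of the values were not whole numbers. The study's methods name the bovine annotation ARS-UCD1.2 and the submitters' notes name UMD3.1, and no coordinates were used. The libraries were made with a kit that primes on poly(A) tails, so a change of tail length can change a count. Here the expected counts were rounded, and F8-F10 were summed per gradient. The 30 libraries (18 transcriptomes and 12 polysome pools) in 12 groups were fitted with edgeR 4.0.16 (TMM, filterByExpr, quasi-likelihood test, Benjamini-Hochberg adjustment over 14612 genes) in R 4.3.3. SE is the absolute log2 fold change divided by the root of F. Trends were tested on genes whose mean CPM reached 1, with 100000 permutations of the fractions, whose smallest p is 1e-05. Alternatives were the likelihood ratio test, DESeq2 1.42.0, other size factors, filters and fractions, a replicate block and leaving out libraries. F3-F5 in place of polysomes was chosen after seeing the data. The scripts were tested on simulated data. The members and gene lists were chosen with earlier results of these data known. Values per library are given for the 2 factors with the largest change per direction in each comparison, for paralogue pairs and for the elongation and release factors. Paralogues can share reads in the estimated counts, so the split between EIF1 and EIF1B, EIF4A1 and EIF4A2, and EIF5A and EIF5A2 is uncertain.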

Additional observations from a re-analysis of the deposited data

Results flagged for a closer look

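Changes of the polysome to transcriptome ratio between consecutive stages were listed here because the difference between stages was itself tested, by the interaction term of edgeR. They numbered 15, 4, 6, 4 and 9 factors in the 5 steps. The ratio rose for 8 factors and fell for 7 from GV to MII oocytes (7.14% and 3.5% of all genes), fell for 4 from MII oocytes to 2-cell embryos (1.08%) and rose for 4 and fell for 2 from 2-cell to 8-cell embryos (3.45% and 8.72%). It rose for 4 from 8-cell embryos to morulae (7.06%) and rose for 7 and fell for 2 from morulae to blastocysts (6.04% and 6.24%). The changes of the log2 ratio with the largest size, up to 2 in each direction and step, follow. From GV to MII oocytes they were 3.26 for EIF1AD, 2.84 for EIF3I, -2.14 for EIF4A2 and -1.96 for EEF1E1. From MII oocytes to 2-cell embryos they were -2.22 for EIF4A3 and -2.18 for EIF2B1. From 2-cell to 8-cell embryos they were 2.60 for EIF3L, 2.57 for EIF5A, -2.43 for EEF1B2 and -1.14 for EIF3F. From 8-cell embryos to morulae they were 1.83 for EIF2B1 and 1.82 for EIF1AD. From morulae to blastocysts they were 1.97 for EIF3E, 1.89 for EIF4A2, -2.79 for EEF1AKNMT and -2.25 for EIF4H. The calls of EEF1E1, EIF5A, EIF3F and EEF1AKNMT were each lost without certain single libraries. So were those of EIF2B1 in both steps and of EIF1AD from 8-cell embryos to morulae. Without morula pool B, the value of EEF1AKNMT was -1.05.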

How the results depend on the processing

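Of 879 recomputed values of named factors, 774 kept their direction and side of the threshold, 105 kept their direction only and 0 reversed, and of 249 recomputed counts 208 stayed within 1.5 times. Leaving out 1 library gave 6 to 10 factors for the transcriptome from MII to 2-cell (10 with all libraries). For changes of the polysome ratio it gave 1 to 5 from MII to 2-cell (4), 3 to 12 from 2-cell to 8-cell (6), 2 to 14 from 8-cell to morula (4) and 5 to 15 from morula to blastocyst (9). DESeq2 gave 10 and 15 ratio changes from 2-cell to 8-cell and from morula to blastocyst. For trends across fractions, 1 gradient alone left 8 libraries and gave 11 factors at GV (26 with both), 2 to 4 at MII (16), 0 to 6 at the 2-cell stage (11), 0 to 4 at the 8-cell stage (14), 0 for morulae (4) and 0 for blastocysts (5). With F1 to F10, trends numbered 6 at MII, 5 at the 2-cell stage, 5 at the 8-cell stage and 8 for blastocysts. The edgeR test of F8-F10 against F3-F5 gave 1 factor at GV and at MII and 0 for 2-cell embryos, morulae and blastocysts. The cause of these differences was not tested, other than the smaller number of libraries. Shares of all genes are not given for the counts in this paragraph.

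The replicate letters were shared between groups, but deviations of same-lettered samples from their group means correlated at -0.16 to 0.0558 between transcriptomes of consecutive stages (15 pairs), at -0.0646 to 0.0236 between polysome pools and transcriptomes of a stage and at -0.0408 to 0.0456 between polysome pools of consecutive stages. The last are 5 values, because with 2 pools the letters A and B give the same one. None was above 0.1, so the letters were not taken to pair samples. With the replicate letter as a block, 22 factors were called in the transcriptome from GV to MII (23 without it), 34 in polysomes of GV oocytes (35) and 8 ratio changes from morula to blastocyst (9), and 6 factors rose across the fractions of morulae when ranked within gradients (4).

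Median-of-ratios size factors moved the median log2 value of all genes by 0.12 from GV to MII and by -0.13 from 8-cell to morula in the transcriptome, and by -0.17, -0.24, -0.11 and -0.15 in polysomes of 2-cell embryos, 8-cell embryos, morulae and blastocysts. DESeq2 moved the share of rises among all calls from 38.7% to 49.7% for the transcriptome from GV to MII and from 67.1% to 56.6% for the ratio in that step. CPM without TMM factors moved it from 49.2% to 59.7% for the trend in GV oocytes, where 17 factors rose and 10 fell. With 2 gradients per stage, and the pools of 8-cell embryos and morulae least alike, differences in polysomes at these stages are the least precise.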
